A study of Caenorhabditis elegans with 16 samples.

Results

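The lbp and far genes of Caenorhabditis elegans encode 2 families of small proteins that bind fatty acids and retinoids. The 10 genes described here, lbp-1, lbp-2, lbp-3, lbp-5, lbp-6, lbp-7, lbp-8, lbp-9, far-1 and far-2, were picked by symbol from the 46904 genes of the deposited count table, and all 10 were found. RNA of whole synchronised worms was counted in 16 libraries after 3 days on agar plates seeded with Escherichia coli OP50. The groups are control worms without added copper (untreated control), control worms on 100 µM CuCl2 (copper-treated control), cua-1(H828Q) worms without added copper (untreated mutant) and cua-1(H828Q) worms on 100 µM CuCl2 (copper-treated mutant), with 4 libraries each. The gene cua-1 encodes the worm's copper-transporting ATPase. No strain name is given for the control, nor for any group the number of worms per library, their sex or whether the mutant is 1 clone. The libraries are called biological replicates, without saying whether they came from separate cultures. The p-values below therefore measure the spread between these libraries.

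Fatty acid-binding proteins of the LBP family are related to the intracellular FABPs of vertebrates and hold a lipid inside a small barrel. In the worm, LBP-1, LBP-2 and LBP-3 carry signals for secretion, and LBP-1 is known from the fluid around the embryo. LBP-3 and LBP-8 are known as carriers in lysosomal lipid signalling, in which LBP-8 takes lipids to the nuclear receptors NHR-49 and NHR-80, and LBP-5 has been tied to NHR-49 and fat storage. FAR proteins have a helical fold found in nematodes and are secreted by parasitic species as well. In C. elegans, yolk and these proteins are among the means by which lipids move between tissues.

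Several of the genes lie near each other (coordinates from Ensembl, assembly WBcel235, which is ce11). On chromosome X, lbp-3 (3257372 to 3258155), lbp-1 (3259142 to 3259812) and lbp-2 (3260610 to 3261470) follow each other on the plus strand, with gaps of 986 and 797 bp and no annotated gene between them. On chromosome III, far-1 (9080371 to 9081179, minus strand) and far-2 (9081828 to 9082511, plus strand) are divergent, with 648 bp between them that 2 annotated genes overlap. The genes lbp-6 and lbp-5 lie 1890 bp apart on the minus strand of chromosome I, with 1 annotated gene overlapping the gap. On chromosome V, lbp-7 (13879552 to 13880213) and lbp-8 (13890773 to 13891364) are 10559 bp apart, with 4 annotated genes in or over the gap, and lbp-9 lies at 2068449 to 2069142, all on the plus strand. Overlaps with a gene on the other strand were annotated for lbp-6 (with mec-6) and lbp-9 (with Y40B10A.9), and the strand setting of the counting is not given in the sources used here.

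A trait that all 10 genes share bears on every value below. Their transcripts are short, 481 to 759 bp with a median of 558.5 bp, against a median of 1375 bp over the 9782 tested genes with a known length. In 5 libraries long transcripts were scarce: the median log2 CPM (read counts scaled to a common library size) of genes over 3000 bp minus that of genes under 800 bp was -2.23 to -0.60, against 0.23 to 1.13 in the other 11. These long-depleted libraries, a group drawn from the data, are untreated control replicates 1, 3 and 4, copper-treated control replicate 1 and copper-treated mutant replicate 4. The 10 genes took 0.44% to 0.821% of all counts in the long-depleted libraries and 0.369% to 0.728% in the others. Because only untreated control replicate 2 remains in its group without them, the tests of the members the text turns on are given with and without these 5 libraries. Total counts ran from 1891008 to 4001750 per library.

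With all libraries, the fitted copper response differed between the 2 genotypes for lbp-1, lbp-3, far-1 and far-2. For these 4 genes it was negative in the control and positive in the mutant, and the genotype by copper interaction passed the test. Of all tested genes 4.11%, and of those under 800 bp 8.23%, were called in that direction. The same signs were fitted for lbp-2, lbp-5 and lbp-9, whose interaction was not called. Medians over tested genes under 800 bp had these signs too, at -0.55 in the control and 0.35 in the mutant. In the untreated control only replicate 2 was not long-depleted, so this trait and the interaction cannot be told apart beyond that library. The interaction call was lost in 12 of 25 alternatives for lbp-3 and in 6 of 25 for far-1. Within either genotype, the copper response of none of the 9 tested members passed edgeR's test on all libraries. DESeq2 called 4 of them lower in the control, against 3.14% of all genes, and 2 higher in the mutant, against 3.21%. The gene lbp-3 was called higher in the mutant than in the control on copper in all 26 alternatives tried. The gene lbp-6 was called in none of the 5 comparisons in that edgeR fit, and lbp-8 did not pass the filter on low counts.

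**Figure D1:**
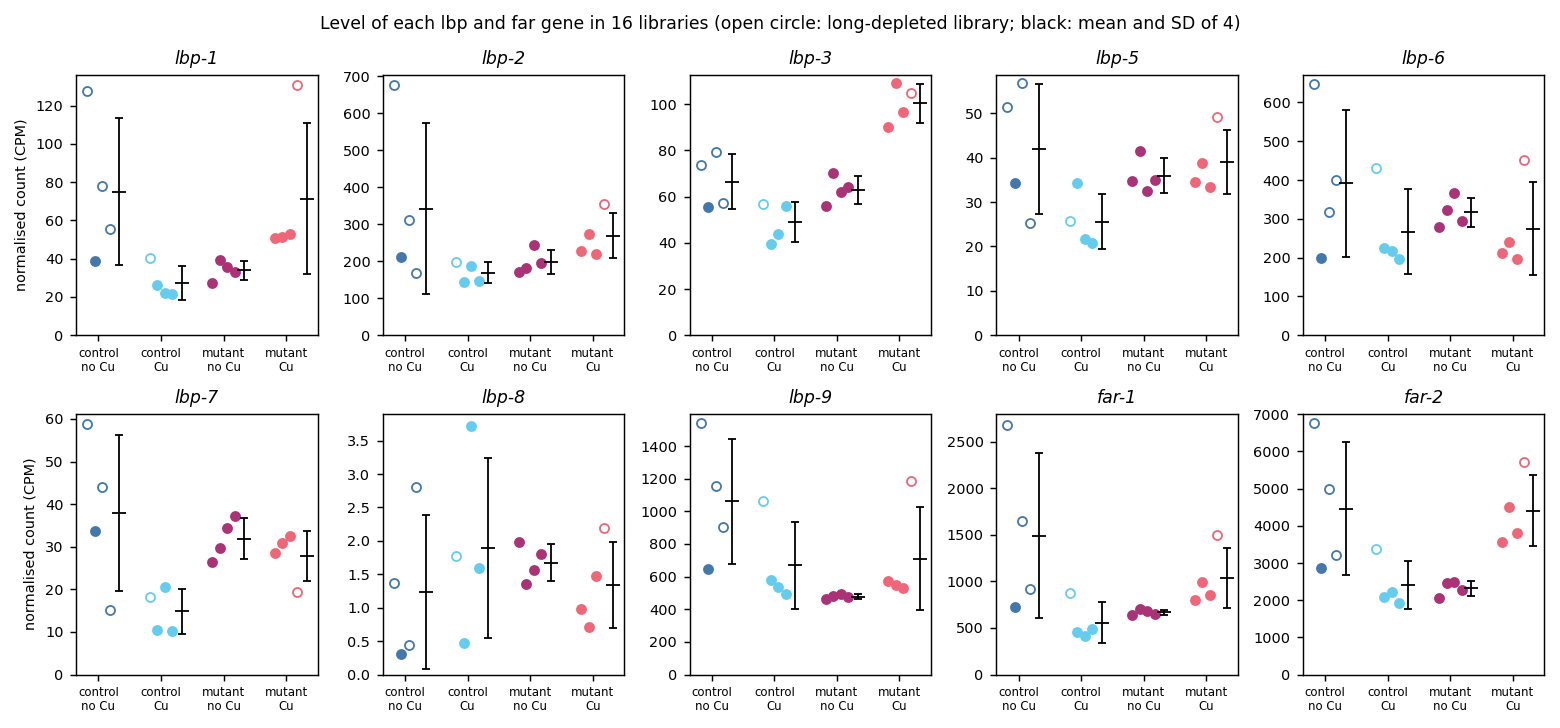
Normalised counts (CPM, linear axes that start at 0) of each gene in the 16 libraries, in the order of replicate numbers, with open circles for the 5 long-depleted libraries and the mean and SD of 4 libraries in black. The copper-treated mutant libraries of lbp-3, at 90.3 to 109 CPM, lie above all others, and the open circles are the highest of their group for lbp-9 and far-1.

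Among the genes with secretion signals, lbp-3 gave the clearest difference. Its normalised counts were 73.9, 55.4, 79.4 and 57.3 CPM in replicates 1 to 4 of the control without copper and 57.0, 39.5, 44.0 and 55.9 CPM in those on copper. In the mutant they were 55.8, 70.3, 61.9 and 64.1 CPM without copper and 90.3, 109, 96.9 and 105 CPM with it. All 4 copper-treated mutant libraries thus exceeded the 12 others, while the remaining 3 groups overlapped in their order of 66.5 ± 11.9 CPM (untreated control), 63.0 ± 5.98 (untreated mutant) and 49.1 ± 8.68 (copper-treated control; SD, n = 4). Of the long-depleted libraries, the 3 untreated controls lay above the fourth library of their group and copper-treated control replicate 1 was the highest of its own, while copper-treated mutant replicate 4, at 105 CPM, fell between those of its group.

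The middle gene of that cluster, lbp-1, stood at 128, 38.9, 78.0 and 55.6 CPM in replicates 1 to 4 of the control without copper and at 40.2, 26.2, 21.98 and 21.4 CPM in those on copper. In the mutant it stood at 27.6, 39.5, 35.9 and 33.0 CPM without copper and at 51.0, 51.4, 52.7 and 131 CPM with it. The highest library of both control groups and of the copper-treated mutant was a long-depleted one. In the 11 other libraries the order was copper-treated mutant (51.7 ± 0.889, n = 3), untreated control (38.9, 1 library), untreated mutant (34.0 ± 5.06, n = 4) and copper-treated control (23.2 ± 2.6, n = 3), and only the untreated control and untreated mutant overlapped as neighbours.

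The third gene, lbp-2, had a mean of 342 ± 231 CPM in the untreated control. Below it came the copper-treated mutant (269 ± 61.3), the untreated mutant (198 ± 31.8) and the copper-treated control (169 ± 28). Neighbours in this order overlapped throughout, while the copper-treated mutant lay above the copper-treated control without overlap. The SD of the untreated control rests on replicate 1, at 677 CPM against 170 to 311 in the others.

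Both far genes encode binding proteins of the FAR family. Counts of far-2 in the control were 6762, 2863, 4986 and 3228 CPM without copper and 3366, 2097, 2228 and 1935 CPM with it. In the mutant they were 2057, 2457, 2489 and 2284 CPM without copper, and with copper 3568, 4519, 3815 and 5704 CPM. The copper-treated mutant lay above both the copper-treated control and the untreated mutant without overlap, and its range crossed that of the untreated control.

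For far-1 the replicates 1 to 4 of the control gave 2680, 723, 1645 and 918 CPM without copper and 879, 452, 412 and 483 CPM with it. Those of the mutant gave 640, 702, 682 and 648 CPM without copper and 795, 993, 851 and 1498 CPM with it. The untreated mutant varied least, at 668 ± 29.2 CPM, and its libraries lay below all of the untreated control. Without the long-depleted libraries the 4 groups did not overlap: 880 ± 102 in the copper-treated mutant (n = 3), 723 in the 1 untreated control library, 668 ± 29.2 in the untreated mutant (n = 4) and 449 ± 36 in the copper-treated control (n = 3).

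The remaining genes follow. In the control, lbp-9 had 1540, 645, 1154 and 906 CPM without copper and 1066, 577, 539 and 495 CPM with it. In the mutant it had 462, 480, 495 and 474 CPM without copper and 575, 548, 533 and 1185 CPM with it. All 5 libraries above 900 CPM were the long-depleted ones. In the other 11 libraries the lowest group was the untreated mutant (477 ± 14, n = 4) and the highest value the 645 CPM of the untreated control.

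The gene lbp-6 showed 647, 199, 317 and 401 CPM in the control without copper and 430, 226, 217 and 196 CPM with it. The mutant showed 280, 323, 368 and 295 CPM without copper and 212, 240, 196 and 451 CPM with it. With all libraries every pair of neighbouring groups overlapped. Without the long-depleted ones the untreated mutant (316 ± 38.6, n = 4) stood above the copper-treated mutant (216 ± 22.5, n = 3), the copper-treated control (213 ± 15.2, n = 3) and the untreated control (199, 1 library). Its neighbour lbp-5, tied to fat storage, ran from 20.8 to 56.9 CPM over all libraries, with means of 42.0 ± 14.7 (untreated control), 39.0 ± 7.24 (copper-treated mutant), 36.0 ± 3.9 (untreated mutant) and 25.6 ± 6.18 (copper-treated control), all overlapping as neighbours.

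In lbp-7 the copper-treated control was low, at 18.2, 10.5, 20.6 and 10.3 CPM by replicates 1 to 4. Without copper the control gave 58.8, 33.6, 44.1 and 15.2 CPM and the mutant 26.5, 29.6, 34.3 and 37.3 CPM, and the mutant on copper gave 28.5, 30.8, 32.6 and 19.4 CPM. Here the long-depleted libraries were not on 1 side: copper-treated mutant replicate 4 and untreated control replicate 4 were the lowest of their groups. The lysosomal signal carrier lbp-8 had 1 to 11 counts per library, and summed over 4 libraries 10 counts in the control without copper, 24 in the control on copper, 28 in the mutant without copper and 19 in the mutant on copper. A level of 3 counts corresponds to 0.661 to 1.69 CPM. In the edgeR fit with no filter beyond 1 count, on 18721 genes, lbp-8 was called in none of the 5 comparisons (adjusted p = 0.51 to 0.845), with values from -1.24 ± 0.97 (interaction) to 0.84 ± 0.72 (copper in the control).

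The genotypes were first compared on copper. Here lbp-1 and lbp-3 rose, by 1.38 ± 0.38 (2.6-fold, adjusted p = 0.035) and 1.03 ± 0.20 (2.04-fold, adjusted p = 0.00425) on the log2 scale, with every mutant library above every control library, as for 11.3% of all tested genes (edgeR, model SE). These are 2 of the 9 genes tested, where 6.39% of all tested genes, and 13.2% of those under 800 bp, were called higher. The median was 0.87 over the 9 genes, 0.27 over tested genes under 800 bp and -0.040 over all tested genes. For lbp-2 and far-2, too, every mutant library was above every control library. The far genes did not pass, with far-2 at 0.87 ± 0.28 (adjusted p = 0.0726) and far-1 at 0.89 ± 0.36 (adjusted p = 0.182). The gene far-2 was called without untreated control replicate 1 (adjusted p = 0.038) or 2 (0.036) and without copper-treated control replicate 1 (0.0286), and also by DESeq2 (0.0206), with no filter (0.0217) and with length offsets (0.54, adjusted p = 0.028). Without the long-depleted libraries, which takes 1 library from each group, 6 of 9 were called higher, with 14.9% of all tested genes: lbp-1 (1.15, adjusted p = 7.35e-06), lbp-3 (1.05, 2.05e-06), far-1 (0.95, 7.62e-08), far-2 (0.90, 2.42e-07), lbp-7 (1.13, 0.000423) and lbp-2 (0.57, 0.00276). The genes lbp-6 (0.04 ± 0.35, adjusted p = 0.968) and lbp-9 (0.09 ± 0.32, adjusted p = 0.913) were far from the threshold, and without the 5 libraries they were at -0.0019 ± 0.121 and 0.014 ± 0.1.

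The 6 libraries left in that comparison still differed in their balance of long and short transcripts, at 0.97 to 1.13 in the copper-treated control and 0.23 to 0.52 in the copper-treated mutant. With the balance as a covariate over all 16 libraries, the values were 0.94 for lbp-3 (adjusted p = 0.000262), 0.82 for lbp-1 (0.00119), 0.59 for far-2 (0.0074) and 0.49 for far-1 (0.047), while lbp-6 was at -0.42 (0.046). In that fit 11.1% of all tested genes were called higher and 4.66% lower. The call of lbp-1 ended without any 1 of copper-treated control replicates 2, 3 and 4 (1.345, 1.274 and 1.265, adjusted p = 0.0977, 0.119 and 0.114), with only the libraries compared (1.394, adjusted p = 0.0589) and without copper-treated mutant replicate 4 (0.91, adjusted p = 0.128). The call of lbp-3 held in all 26 alternatives, at 0.72 to 1.09.

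Next, copper was compared with none in the control. All 9 tested genes had lower fitted levels, and none passed (edgeR), where 1.32% of all tested genes, and 2.51% of those under 800 bp, were called lower. An unadjusted p under 0.05 was found for 7 of them, against 19.1% of all tested genes in either direction, and DESeq2 called 4 lower, against 3.14% of all genes. The values nearest to the threshold were far-1 at -1.42 ± 0.36 (adjusted p = 0.0521), lbp-7 at -1.35 ± 0.35 (0.0591) and lbp-1 at -1.45 ± 0.38 (0.062), and far-2 was at -0.89 ± 0.28 (0.122). The median was -0.89 over the 9 genes, -0.55 over the 2188 tested genes under 800 bp and -0.05 over all tested genes.

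Leaving out 1 library turned several of these into calls. Over all genes, calls in either direction then ran from 44 to 849, against 174 with all libraries. Without untreated control replicate 2, which is the 1 library of its group that is not long-depleted, far-1 (-1.64, adjusted p = 0.0122), lbp-1 (-1.66, 0.0195), far-2 (-1.05, 0.0289), lbp-7 (-1.4, 0.0357) and lbp-2 (-1.18, 0.041) were called lower. Without copper-treated control replicate 1, far-1 (-1.70, adjusted p = 0.0239), lbp-1 (-1.67, 0.0376) and far-2 (-1.07, 0.0426) were called. Of the libraries compared, only those of the untreated control then included long-depleted ones. Without untreated control replicate 4 the calls were lbp-7 (-1.60, adjusted p = 0.00629), far-1 (-1.59, 0.0224), lbp-2 (-1.23, 0.039) and lbp-1 (-1.56, 0.0402), and without copper-treated mutant replicate 4 they were lbp-1, far-1 and lbp-7 (adjusted p = 0.0196, 0.0313 and 0.0394). In the fit without all 5 long-depleted libraries, far-1 (-0.73, adjusted p = 0.00181), lbp-7 (-1.33, 0.00705), lbp-1 (-0.81, 0.0455) and far-2 (-0.50, 0.047) were called lower, but there the untreated control is 1 library whose spread is assumed to equal that of the other groups. In that fit 2.41% of all tested genes were called lower.

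In the comparison of copper with none in the mutant, 1 of the 8 libraries was long-depleted. The balance of the other copper-treated libraries, 0.23 to 0.52, still lay below the 0.62 to 1.04 of the untreated ones. With all libraries none of the 9 genes passed (edgeR), where 1.78% of all tested genes, and 2.97% of those under 800 bp, were called higher. An unadjusted p under 0.05 was found for 3 of them, against 12% of all tested genes in either direction. DESeq2 called 2 higher, against 3.21% of all genes. The values were 0.92 ± 0.28 for far-2 (adjusted p = 0.108), 0.67 ± 0.20 for lbp-3 (0.101), 1.07 ± 0.37 for lbp-1 (0.187) and 0.63 ± 0.35 for far-1 (0.502). For each of these 4 genes, and for lbp-9 (0.57 ± 0.32, adjusted p = 0.492), all copper-treated libraries lay above all untreated ones, which was so for 11.2% of all tested genes. The median was 0.57 over the 9 genes, 0.35 over tested genes under 800 bp and 0.020 over all tested genes.

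Without the long-depleted libraries (3 against 4), far-2 rose by 0.76 (adjusted p = 1.56e-06), lbp-3 by 0.64 (0.000611), lbp-1 by 0.59 (0.0051) and far-1 by 0.38 (0.00632), and lbp-6 fell by 0.57 (0.000601). In that fit 7.62% of all tested genes were called higher and 6.89% lower. With the balance as a covariate, far-2 (0.54, adjusted p = 0.0377), lbp-3 (0.56, 0.0475) and lbp-6 (-0.83, 0.00068) were called, while lbp-1 (0.36, 0.294) and far-1 (0.069, 0.914) were not. In that fit 2.44% of all tested genes were called higher and 1.63% lower.

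The interaction is the log2 response to copper in the mutant less that in the control. It passed for 4 of the 9 genes, all with positive values, where 4.11% of all tested genes, and 8.23% of those under 800 bp, were called in that direction. These were lbp-1 at 2.52 ± 0.53 (adjusted p = 0.00974), far-2 at 1.81 ± 0.39 (0.0108), far-1 at 2.05 ± 0.50 (0.0227) and lbp-3 at 1.11 ± 0.28 (0.0281). The calls of lbp-1 and far-2 held in all 25 alternatives, from 1.01 to 2.73 and from 0.94 to 1.97. The median interaction was 1.24 over the 9 genes and 0.92 over tested genes under 800 bp, against 0.085 over all tested genes. Without the long-depleted libraries these medians were 0.92, 0.14 and -0.020.

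In that fit, whose untreated control is 1 library assumed to vary like the other groups, 8 of the 9 genes were called, 7 of them positive, where 5.22% of all tested genes were called higher and 6.95% lower. Its largest values were those of lbp-1 (1.4, adjusted p = 0.000902), lbp-7 (1.26, 0.0169), far-2 (1.25, 8.43e-06) and far-1 (1.11, 4.2e-05), and lbp-6 went the other way (-0.62, 0.0481). With the balance as a covariate lbp-1 (1.01, adjusted p = 0.0375), far-2 (0.94, 0.0338) and, with the opposite sign, lbp-6 (-1.01, 0.0183) were called, where 1.73% of all tested genes were called higher and 0.838% lower. The call of far-1 was lost in that fit (0.74, adjusted p = 0.196) and without any 1 of untreated mutant replicates 1 and 4 and copper-treated control replicates 2, 3 and 4 (adjusted p = 0.0528, 0.0517, 0.0567, 0.0578 and 0.0585). That of lbp-3 was lost in 12 of 25 alternatives, with adjusted p up to 0.301, among them the covariate (0.84, adjusted p = 0.0885), length offsets (0.45, 0.301), no filter (0.0989) and the removal of untreated control replicate 1 or 3, untreated mutant replicate 1, 3 or 4, copper-treated control replicate 2 or 3 and copper-treated mutant replicate 2 (adjusted p = 0.0504, 0.0773, 0.0741, 0.061, 0.0647, 0.0739, 0.0729 and 0.0638). Without untreated control replicate 2 or copper-treated control replicate 1, calls were added for lbp-9 (adjusted p = 0.0324 and 0.0243) and lbp-2 (0.026 and 0.044), and without untreated control replicate 4 for lbp-2 (0.0279) and lbp-7 (0.05 after rounding). Over all genes, interaction calls ran from 337 to 2140 when 1 library was left out, against 527 with all libraries.

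**Figure D2:**
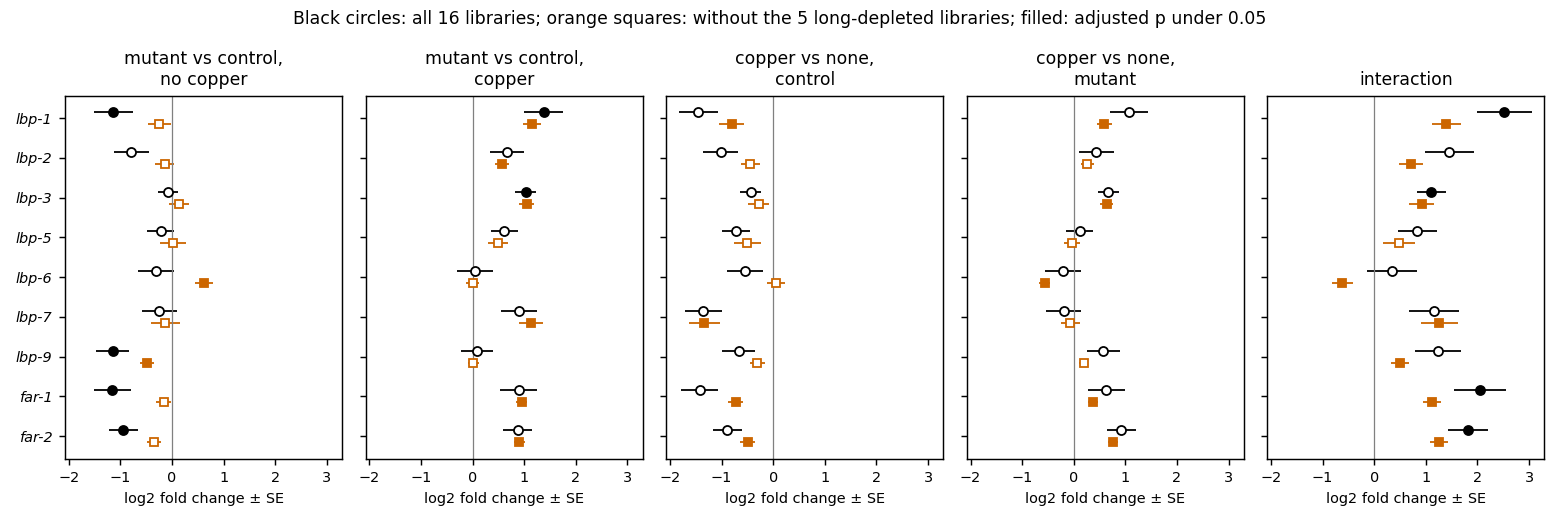
Log2 fold changes with the model's SE for the 9 tested genes (rows) in the 5 comparisons (panels), from all 16 libraries (black circles) and without the 5 long-depleted libraries (orange squares), filled where the adjusted p was under 0.05. In the interaction lbp-1 stood at 2.52 with all libraries and 1.4 without the 5, and lbp-6 changed sign, from 0.35 to -0.62.

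Mutant against control without copper gave lower values of lbp-9 (-1.15 ± 0.32, adjusted p = 0.0241), far-2 (-0.94 ± 0.28, 0.0292), far-1 (-1.16 ± 0.36, 0.0335) and lbp-1 (-1.14 ± 0.38, 0.0413). These 4 of 9 compare with 12.5% of all tested genes, and 24.5% of those under 800 bp, called lower. In lbp-9, far-1 and far-2 every mutant library was below every control library, as in 12.4% of all tested genes. All 9 tested genes had lower fitted levels, with a median of -0.79, against -0.60 over tested genes under 800 bp and 0.0022 over all tested genes.

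Of the 8 libraries in that comparison, 3 were long-depleted, all in the untreated control, so that this trait and the genotype cannot be told apart here beyond 1 control library. Against that library, lbp-9 kept its call (-0.48, adjusted p = 0.0118), and far-2 (-0.35, 0.0872), far-1 (-0.16, 0.461) and lbp-1 (-0.25, 0.482) did not. The gene lbp-6 was then called higher (0.62, adjusted p = 0.0123), against -0.31 ± 0.35 with all libraries, and 6.41% of all tested genes were called lower and 11.1% higher. With the balance as a covariate none of the 4 kept its call (lbp-9 at -0.37, adjusted p = 0.0966, far-2 at -0.35, 0.209, far-1 at -0.25, 0.487, and lbp-1 at -0.19, 0.567), and lbp-6 alone was called, higher (0.59, adjusted p = 0.0239), where 6.56% of all tested genes were called higher and 2.29% lower. All 4 calls also ended without untreated control replicate 1 (adjusted p = 0.0762 for lbp-9, 0.106 for far-2, 0.138 for far-1 and 0.156 for lbp-1), without untreated control replicate 3 (0.0557 to 0.0809), and without any 1 of the 4 untreated mutant libraries (0.054 to 0.103). That of lbp-1 ended also without copper-treated control replicate 2 (0.0518), and lbp-2 (-0.79 ± 0.33, adjusted p = 0.0893) was called without untreated control replicate 2 (0.0335) or 4 (0.0381).

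**Figure D3:**
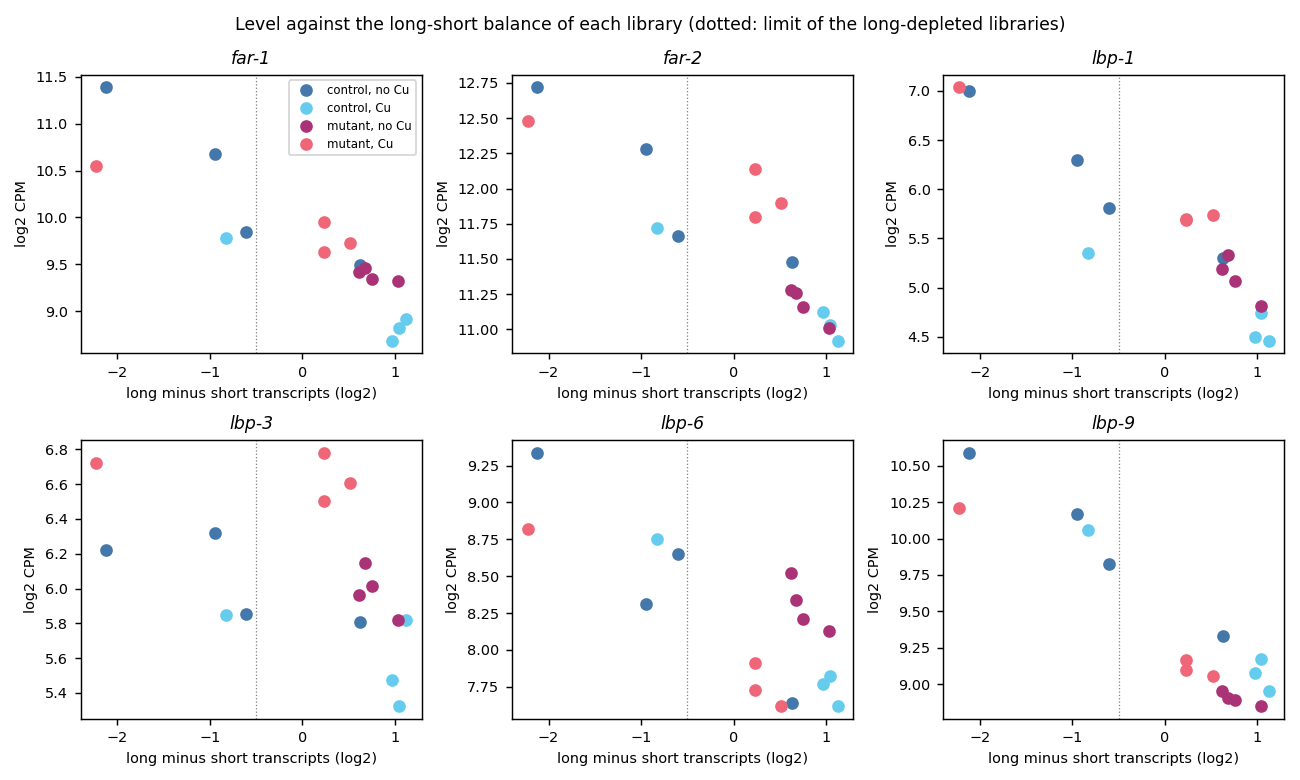
Level (log2 CPM) of 6 genes against the balance of long and short transcripts in each of the 16 libraries (median log2 CPM of genes over 3000 bp minus that of genes under 800 bp), coloured by group, with a dotted line at -0.5. For lbp-9 the 5 libraries left of the line are the highest of the 16, which is not so for far-1, far-2 or lbp-1, and in lbp-3 the copper-treated mutant is highest on both sides of the line.

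Pairs of members were also compared within a library, where depth has no part: 5 ratios between members near each other and the ratio of far-1 to lbp-9, which lie on different chromosomes. The log2 ratio of far-1 to far-2 counts was -2.11 ± 0.122 in the copper-treated mutant and -1.79 ± 0.0778 in the untreated mutant (SD, n = 4), with no overlap, so that far-2 took a larger part of the pair on copper (difference -0.32, exact two-sided permutation p = 0.0286, the smallest that 4 against 4 allows). In the control the ratio was -2.15 ± 0.226 on copper and -1.68 ± 0.281 without (difference -0.46, exact permutation p = 0.0571). The ratio of lbp-1 to lbp-3 was -0.90 ± 0.108 in the untreated mutant and 0.053 ± 0.539 in the untreated control, again with no overlap (exact permutation p = 0.0286), with a difference of -0.95, which was -0.39 once the long-depleted libraries were left out. The ratio of far-1 to lbp-9 was 0.59 ± 0.229 in the mutant on copper, 0.48 ± 0.0441 in the mutant without, -0.26 ± 0.159 in the control on copper and 0.37 ± 0.351 in the control without. It did not overlap between the genotypes on copper (difference 0.85, and 0.93 without the long-depleted libraries) or between copper and none in the control (-0.64, and -0.42 without them), each with an exact permutation p = 0.0286. None of the 24 comparisons of 6 ratios passed after Benjamini-Hochberg adjustment of these exact permutation tests, which had 4 at an unadjusted p under 0.05 (lowest adjusted p = 0.137).

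**Figure D4:**
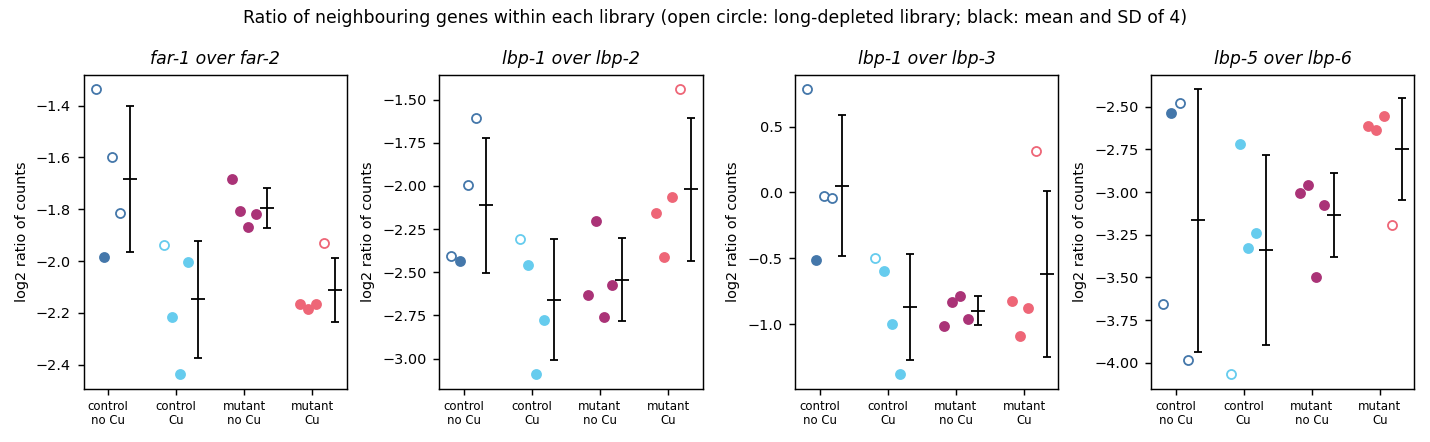
Log2 ratio of raw counts of 4 pairs of neighbouring genes in each library, with open circles for long-depleted libraries and the mean and SD of 4 libraries in black. For far-1 over far-2 the copper-treated mutant libraries, at -2.19 to -1.93, lie below the untreated mutant libraries, at -1.87 to -1.68.

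Likeness of pattern was measured as the mean absolute difference of log2 CPM over the 16 libraries, each gene centred on its own mean. Of the 36 pairs among the 9 tested genes, the closest were far-1 with lbp-1 (0.179), far-1 with far-2 (0.202) and lbp-1 with far-2 (0.218). The most distant were lbp-7 with lbp-9 (0.666) and lbp-7 with lbp-6 (0.593). Over the 11 libraries that were not long-depleted, far-1 and lbp-1 remained the closest pair (0.127), followed by far-1 with lbp-3 (0.158) and lbp-1 with far-2 (0.16). Among all other tested genes, those most like a member were T09A12.5 (0.0601) and C16C10.4 (0.066) for lbp-9, ttr-6 (0.11) and mlc-2 (0.127) for far-2, and heh-1 (0.138) and E04F6.8 (0.146) for far-1. The nearest to lbp-1 were F54D5.3 (0.187) and flp-28 (0.191), to lbp-2 Y34B4A.9 (0.115) and his-37 (0.129), and to lbp-3 acl-7 (0.163) and B0379.1 (0.173). For lbp-5 they were Y49E10.18 (0.192) and csq-1 (0.195), for lbp-6 gcsh-2 (0.117) and gpd-2 (0.148), and for lbp-7 F41C3.5 (0.274) and emb-9 (0.295), against a median over all other tested genes of 0.536 to 0.713, depending on the member. The libraries share their balance of long and short transcripts in every such value.

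Of the 7 relatives outside the members, lbp-4 and far-3, far-5, far-6 and far-8 were tested. The gene far-8 was called higher in the mutant without copper (1.22 ± 0.37, adjusted p = 0.0309) and with copper (1.28 ± 0.37, 0.0435). Of all tested genes 9.39% and 6.39% were called higher in these comparisons. Without the long-depleted libraries the values of far-8 were 2.32, against 1 control library with 6 counts, and 1.02 (adjusted p = 0.0423). Its levels were low, with means of 4.26 and 3.2 CPM in the untreated and copper-treated control. In the mutant they were 9.8 and 7.96 CPM. The gene far-6 had values of 1.02 ± 0.35 for the mutant on copper (adjusted p = 0.0984) and 1.59 ± 0.49 for the interaction (0.0673), and without the long-depleted libraries it was called in both (1.3, adjusted p = 9.48e-06, and 1.48, adjusted p = 0.00283). The low far-4 and far-7 did not pass the filter.

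Other lipid genes moved in the same comparisons. In the mutant on copper, all 6 yolk protein genes fell, among them vit-1 (-2.32 ± 0.29, adjusted p = 0.000176), and 4 of 25 tested genes of fat breakdown rose, among them the acyl-CoA synthetase acs-2 (3.42 ± 0.51, adjusted p = 0.000654) and the glyoxylate enzyme icl-1 (1.95 ± 0.45, adjusted p = 0.012). The median over the fat breakdown list was -0.033, close to the -0.040 of all tested genes, of which 6.39% were called higher and 0.542% lower. Of 18 fat synthesis genes, the stearoyl-CoA desaturase fat-7 fell (-1.47 ± 0.30, adjusted p = 0.0061), and of 9 fat storage genes the droplet protein dhs-3 fell (-1.01 ± 0.28, adjusted p = 0.0321). Without the long-depleted libraries 5 of the 18 fat synthesis genes were called lower and 0 higher, where 8.52% of all tested genes were called lower. In the control, copper lowered acs-2 (-3.23 ± 0.51, adjusted p = 0.00344) and icl-1 (-2.75 ± 0.46, adjusted p = 0.00587), 2 of 25 fat breakdown genes, where 1.32% of all tested genes were called lower. In the mutant, copper raised 3 of these 25, with acs-2 at 3.94 ± 0.51 (adjusted p = 0.00032) and icl-1 at 2.35 ± 0.46 (0.00848), and lowered 4 of 6 yolk genes, where 1.78% of all tested genes were called higher and 0.46% lower. Among the 18 fat synthesis genes it lowered fat-7 (-1.65 ± 0.30, adjusted p = 0.00567). Without the long-depleted libraries 10 of the 18 were called lower there, where 6.89% of all tested genes were. Without copper, 6 of 25 fat breakdown genes were lower in the mutant and 3 higher, where 12.5% of all tested genes were called lower and 9.39% higher, with acs-2 at -3.75 ± 0.51 (adjusted p = 0.000663) and icl-1 at -3.15 ± 0.47 (0.00107) among the lower and acdh-8 at 2.36 ± 0.43 (0.00288) among the higher. Of the fat synthesis genes, elo-5 rose in the untreated mutant (1.96 ± 0.44, adjusted p = 0.0104, and 2.79, 6.18e-09, without the long-depleted libraries), together with elo-2 (1.14 ± 0.31, 0.0236, and 1.87, 2.29e-07) and fasn-1 (1.498 ± 0.509, 0.0455, and 0.24, 0.517, without the long-depleted libraries). Of lysosomal lipases, a class that makes lipids carried by LBP-8, 2 of 8 were tested, and lipl-5 was lower in the untreated mutant (-1.21 ± 0.29, adjusted p = 0.0139, and -0.28, adjusted p = 0.28, without the long-depleted libraries).

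Whole worms were extracted, so fewer cells of a type and less RNA per cell cannot be told apart. Summed levels of 8 intestinal markers in the control were 3807 to 14760 CPM without copper and 2915 to 5631 CPM with it, and in the mutant 2986 to 3548 CPM without copper and 4107 to 8098 CPM with it. The 7 hypodermal markers had 1774 to 3282 CPM in the copper-treated control and 2926 to 4679 in the copper-treated mutant, and 6 body wall muscle markers had 2204 to 3688 and 3731 to 5031. The 6 yolk genes, of the adult intestine, summed to 20970 to 22840 CPM in the copper-treated control and 1801 to 7837 in the copper-treated mutant. On copper, the sums of muscle markers, of 7 neuronal markers (474 to 623 against 244 to 445 CPM) and of 7 sperm markers (590 to 1254 against 241 to 324 CPM) were higher and the yolk sums lower in the mutant, all without overlap, and the intestinal and hypodermal sums overlapped. Of 6 tested sperm genes 4 were called higher in the mutant on copper, as were 2 of 7 neuronal, 2 of 6 hypodermal, 1 of 8 intestinal and 1 of 5 pharyngeal markers. With all libraries, none of the 6 muscle, 7 oocyte and 4 germline markers was called in either direction. Called higher were 6.39% of all tested genes and 13.2% of those under 800 bp. Without the long-depleted libraries, 1 in each of these groups, all 6 muscle markers were called higher. So were 4 of 6 hypodermal, 3 of 7 neuronal, 3 of 8 intestinal, 2 of 5 pharyngeal and 5 of 6 sperm markers. No oocyte or germline marker was called there, and 14.9% of all tested genes were called higher. Without copper and with all libraries, 3 of 5 pharyngeal and 3 of 6 sperm genes were called higher in the mutant and 2 of 7 oocyte genes lower. Of 8 intestinal markers 2 were lower and 1 higher, against 9.39% of all tested genes called higher and 12.5% lower. The median log2 fold changes were 2.28 (pharyngeal), 0.831 (sperm), -0.465 (oocyte), -0.233 (intestinal), -0.0243 (muscle), 0.136 (hypodermal), -0.119 (neuronal) and 0.00919 (germline). Against the 1 untreated control library that was not long-depleted they were 1.36, 1.9, -0.468, 0.0355, 0.561, 0.795, 0.356 and -0.132, in that order. The pharyngeal sums there were 61.1 to 95.5 CPM against 20.7 to 39.3 CPM in the control, and the sperm sums 740 to 824 against 201 to 529 CPM. The part of these markers in the results above was not tested. None of the intestinal, hypodermal or muscle markers was at 0 in any group.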

How the data were processed

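Raw counts per gene for 16 libraries were deposited by the authors, without normalization. The libraries came from a 3′ digital mRNA sequencing service, per the labels' protocols, and bcl2fastq, STAR 2.6.0a, HTSeq and ce11 are named by the submitters' processing notes without settings. The annotation release and strand setting are not given in the sources used here. Counts were tested with edgeR 4.0.16 (R 4.3.3, limma 3.58.1): TMM normalization, filterByExpr, 1 mean per group over all 16 libraries and the robust quasi-likelihood test. Adjusted p is Benjamini-Hochberg over 9787 tested genes, called under 0.05. Of the 10 members 9 were tested. CPM uses TMM library sizes, the log2 CPM a prior count of 2, and totals were 1891008 to 4001750. Floors of 3 counts cover counting error only. The model's SE is the absolute log2 fold change over the root of the F statistic. The pipeline was tested on simulated data. Members, gene lists and alternatives were chosen with earlier results of these data known. Named are all members, the 2 genes most like each, all relatives and up to 3 called genes per list, taken by lowest adjusted p. Transcript lengths are of the longest Ensembl transcript. No sequence was used here. Exact permutation tests compared ratios. Alternatives included DESeq2 1.42.0, other scaling and filters, the replicate block, leaving out each library, the long-short balance as covariate and, added after seeing the data because all members are short, offsets for transcript length (lowess span 0.3). Replicate pairs differed beyond sampling noise (chi-square per degree of freedom 2.66 to 67.6).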

Additional observations from a re-analysis of the deposited data

Results flagged for a closer look

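In 5 of 40 combinations of a member and a group, 1 library lay far from the other 3 by Dixon's criterion, which chance meets in about 1 of 20 groups. All 5 values are high and come from copper-treated mutant replicate 4 or copper-treated control replicate 1, both long-depleted. Because they share these libraries, the 5 are not separate cases to set against that chance rate. Copper-treated mutant replicate 4 held 131 CPM of lbp-1, against 51.0 to 52.7 in the others, and 1185 CPM of lbp-9, against 533 to 575. Copper-treated control replicate 1 held 430 CPM of lbp-6, against 196 to 226, 1066 CPM of lbp-9, against 495 to 577, and 879 CPM of far-1, against 412 to 483.

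The copper response differed between the genotypes, by the interaction term of edgeR, for lbp-1 (2.52, adjusted p = 0.00974), far-1 (2.05, adjusted p = 0.0227), far-2 (1.81, adjusted p = 0.0108) and lbp-3 (1.11, adjusted p = 0.0281). In all 4 the mutant's fitted response was positive and the control's negative. These were also the signs of lbp-2, lbp-5 and lbp-9, and of the medians over tested genes under 800 bp (0.35 and -0.55). The call was lost in 12 of 25 alternatives for lbp-3 and in 6 of 25 for far-1, and in none for lbp-1 and far-2. Of all tested genes 4.11%, and of those under 800 bp 8.23%, were called in that direction. In the untreated control only replicate 2 was not long-depleted.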

How the results depend on the processing

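Low counts kept lbp-8 below the filter, and the long-depleted libraries leave 1 untreated control library without that trait. Counts of members called were as follows, against those with all libraries, with the share of all genes called in parentheses. For the mutant without copper (4), they were 1 with the replicate block (14.5%), where far-2, far-1 and lbp-1 were not called (adjusted p = 0.0508, 0.057 and 0.0723), 2 without the long-depleted libraries (17.5%), 1 with the balance covariate (8.85%; lbp-6, higher) and 0 to 5 when 1 library was left out. For the mutant on copper (2), they were 1 with only the libraries compared (7.38%), 1 with the replicate block (6%), where lbp-1 was not called (1.37, adjusted p = 0.0582), 3 with DESeq2 (9.19%), no filter (3.9%) and length offsets (6.52%), 6 without the long-depleted libraries (23.4%), 5 with the covariate (15.8%) and 1 to 3 when 1 library was left out. For copper in the control (0), they were 1 with DESeq2 size factors (1.75%), 2 with no filter (0.871%), 4 with DESeq2 (4.5%), 4 without the long-depleted libraries (4.78%), 2 with length offsets (1.92%) and 0 to 5 when 1 library was left out. For copper in the mutant (0), they were 1 with no filter (1.28%), 2 with DESeq2 (4.42%), 1 with only the libraries compared (4.95%), 5 without the long-depleted libraries (14.5%), 3 with the covariate (4.08%), 1 with length offsets (3.02%) and 0 throughout when 1 library was left out. For the interaction (4), they were 3 with no filter (2.75%), 3 with the replicate block (3.87%), where lbp-3 was not called (adjusted p = 0.0636), 3 with length offsets (5.34%), 3 with the covariate (2.56%; lbp-6 among them, negative), 5 with DESeq2 (10.5%), 8 without the long-depleted libraries (12.2%) and 2 to 6 when 1 library was left out. The causes were not tested.

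Changes of sign concerned lbp-3, lbp-5, lbp-6, lbp-7 and lbp-9, in comparisons where none was called with all libraries. For the mutant without copper, lbp-3 (-0.078) went to 0.039 with no filter, 0.13 without the long-depleted libraries, 0.092 with the covariate and 0.27 with length offsets; lbp-5 (-0.22) to 0.022 without the long-depleted libraries, 0.059 with the covariate and 0.17 with length offsets; lbp-6 (-0.31) to 0.62, 0.59 and 0.17 in that order; and lbp-7 (-0.25) to 0.16 with length offsets. When 1 library was left out they ranged from -0.16 to 0.018, -0.40 to -0.042, -0.52 to 0.048 and -0.51 to 0.031. For the mutant on copper, lbp-6 (0.04) went to -0.0019 without the long-depleted libraries, -0.42 with the covariate and -0.37 with length offsets, and lbp-9 (0.085) to -0.34 with the covariate and -0.31 with length offsets, with ranges of -0.31 to 0.32 and -0.28 to 0.36 when 1 library was left out. For copper in the control, lbp-6 (-0.55) went to 0.055 without the long-depleted libraries and 0.17 with the covariate. For copper in the mutant, lbp-5 (0.11) went to -0.033 without the long-depleted libraries, -0.091 with the covariate, -0.23 with length offsets and -0.017 to 0.19 when 1 library was left out, and lbp-9 (0.57) to -0.017 with the covariate. For the interaction, lbp-6 (0.35) went to -0.62 without the long-depleted libraries, -1.01 with the covariate and -0.55 with length offsets, with -0.018 to 0.60 when 1 library was left out, and lbp-5 (0.83) to -0.019 with length offsets.

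Libraries with the same replicate number mostly did not deviate alike from their groups. Whether the numbers mark a shared culture or batch was not tested. Of 24 same-numbered pairs 6 had correlated deviations above 0.1 (range -0.597 to 0.554), and the best match in another group had the same number in 9 of 48 cases. With the replicate block the calls over all genes went from 2141 to 1419 for the mutant without copper and from 174 to 64 for copper in the control. When 1 library was left out, calls over all genes ran from 735 to 3838 (2141 with all), 434 to 840 (678), 44 to 849 (174), 115 to 334 (219) and 337 to 2140 (527), in the order above.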
